A study of Mus musculus with 40 samples.

Results

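Lipid droplet proteins and lipases were followed in the livers of mice given GenX, an ammonium salt of a perfluorinated ether carboxylic acid. The genes were 10 of the 21448 gene symbols measured, and 18 of the 30146 probes carried one of their names. They were taken by name and not by their values: the perilipins Plin2, Plin4 and Plin5, the CIDE proteins Cidea, Cideb and Cidec, the lipases Pnpla2 and Mgll, the lipase inhibitor G0s2, and Fitm2. Where a gene had several probes, the probe with the most reads was used and the further probes served as a check.

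Male and female Crl:CD1(ICR) mice, an outbred wildtype stock, were gavaged daily for 90 days with GenX at 5, 0.5 or 0.1 mg per kg of body weight or, as controls at 0 mg/kg, with deionized water. RNA was measured by TempO-Seq, in which pairs of short detector oligonucleotides are joined on their target transcript, amplified and counted, in scrapings of formalin-fixed, paraffin-embedded liver sections. There were 8 groups of 5 mice and 40 libraries. All groups shared the strain, the housing and the fixation, and the same control mice served every dose of their sex. A section holds every cell type of the liver, so a lower level from fewer cells of a type cannot be told apart from less RNA per cell.

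The library of mouse 355, a female at 0.5 mg/kg, held 6711981 reads and was left out, because its total lay more than 2 SD below the mean of all libraries. The 39 libraries used held 10341341 to 15562253 reads. The smallest counts in a library clustered at a fixed number of reads, taken here as the yield of 1 captured molecule, and this yield ranged from 20.8 to 49.8 reads. A library therefore held an estimated 287244 to 656743 molecules, with medians of 329947 in control males, 591295 in males at 5 mg/kg, 418492 in control females and 320470 in females at 5 mg/kg. Transcripts of the Y chromosome had reads in the male libraries only. Of 6 hepatocyte markers, 4 were lower at 5 mg/kg in each sex, namely Ahsg, Serpina1a, Cps1 and Ass1, while for Alb and Ttr the adjusted p ranged from 0.31 to 1.0. The summed level of these 6 markers, in reads scaled to a common library size (CPM), ranged from 14616 to 17866 in control males and from 8933 to 10812 in males at 5 mg/kg. In females the corresponding ranges were 16032 to 18594 and 10919 to 13295.

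Hepatocytes store triglyceride in droplets bounded by a single layer of phospholipid, to which perilipins bind and where they limit the access of lipases. Adipose triglyceride lipase removes the first fatty acid from a triglyceride, hormone-sensitive lipase the next, and monoacylglycerol lipase the last, while CIDE proteins join droplets and exchange lipid between them. Many of these genes are known targets of peroxisome proliferator-activated receptors, which bind with the retinoid X receptor to direct repeats of the hexamer AGGTCA set 1 base apart.

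RefSeq promoter windows, which run from 250 bases before to 50 bases after an annotated start in build GRCm38.p6, were found for 9 of the 10 genes, in 12 windows. Those of the genes with the smallest p-values are shown, because these genes carry the main results, with the hexamer in capitals on the strand of the gene or as its reverse complement TGACCT. The Plin2 window is chr4:86670010-86670309 on the minus strand, the Plin5 window is chr17:56117499-56117798 on the minus strand, and the Mgll window is chr6:88724162-88724461 on the plus strand.
Plin2: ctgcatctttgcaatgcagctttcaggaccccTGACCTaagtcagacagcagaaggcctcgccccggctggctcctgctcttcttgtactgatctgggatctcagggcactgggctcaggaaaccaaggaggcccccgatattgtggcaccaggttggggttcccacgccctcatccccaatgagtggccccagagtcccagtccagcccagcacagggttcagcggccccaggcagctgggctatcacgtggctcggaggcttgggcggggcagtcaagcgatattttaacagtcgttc
Plin5: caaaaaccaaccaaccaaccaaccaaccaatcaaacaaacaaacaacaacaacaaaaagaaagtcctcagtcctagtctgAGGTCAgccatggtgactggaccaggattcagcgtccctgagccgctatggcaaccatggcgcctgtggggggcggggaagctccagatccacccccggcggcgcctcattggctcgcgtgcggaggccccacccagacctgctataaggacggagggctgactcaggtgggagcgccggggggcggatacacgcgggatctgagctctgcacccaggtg
Mgll: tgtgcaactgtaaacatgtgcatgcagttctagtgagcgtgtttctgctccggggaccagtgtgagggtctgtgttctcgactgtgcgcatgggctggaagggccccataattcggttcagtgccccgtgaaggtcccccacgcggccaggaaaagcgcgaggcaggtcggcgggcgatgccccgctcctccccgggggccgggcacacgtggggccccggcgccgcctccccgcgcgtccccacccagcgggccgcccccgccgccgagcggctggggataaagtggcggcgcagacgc
In the windows shown, the hexamer lay 218 bases before the Plin2 start and 170 bases before the Plin5 start. The Mgll window shown held none, and neither did a further Mgll window. A further Plin5 window held a different hexamer, downstream of its own start. Searched on both strands, AGGTCA occurred in 3 of the 12 windows, 1 of Plin2 and 2 overlapping windows of Plin5, and in 16.3% of all 32851 RefSeq promoter windows. The direct repeat AGGTCANAGGTCA occurred in none of the 12 windows and in 0.0396% of all windows. A match describes the letters of the window and not binding, and the window does not reach distant elements.

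At 5 mg/kg most droplet genes that passed the test were higher than in controls. In males 7 of the 10 genes passed an adjusted p of 10% (edgeR quasi-likelihood test, Benjamini-Hochberg adjustment over 17877 probes), against 8.28% of all probes. Plin2, Plin5, Cidea, Cidec, Mgll and Fitm2 were higher, a direction in which 4.83% of all probes were called, and Cideb was lower, as were 3.45% of all probes. In females Plin2, Mgll and Fitm2 were higher and none was lower, against 3.66% of all probes called, 1.83% higher and 1.83% lower. The median log2 fold change of the 10 genes was 1.51 in males and 1.16 in females, and that of all probes was 0.10 and -0.01. Over the 8 genes without Cidea and Cidec it was 1.40 in males and 1.16 in females. With both genes at the ratios to a control floor given with their values, the median was 1.51 in males. Each of the 10 genes passed the filter on low counts, but the Cidea probe passed it only through the 5 males at 5 mg/kg, which held all of its reads, and the leading Cidec probe had reads in 9 libraries, 5 of them of these males. Without Cidea and Cidec, 5 of the other 8 genes passed in males at 5 mg/kg, 4 higher and 1 lower.

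At 0.5 mg/kg 3 of the 10 genes passed in males, against 2.38% of all probes. Plin2 and Mgll were higher, with 1.74% of all probes, and Cideb was lower, with 0.638%. In females at this dose no gene passed, against 0.213% of all probes. For the 10 genes the median log2 fold change was 0.77 (males) and 0.09 (females), and 0.77 and 0.26 without Cidea and Cidec. At 0.1 mg/kg no gene passed in either sex, against 0.0336% of all probes in males and 0% in females. At an unadjusted p below 0.05 the edgeR test gave 2 of the 10 in males at 0.1 mg/kg, against 13.6% of all probes, 1 in females at 0.1 mg/kg, against 10.3%, and 1 in females at 0.5 mg/kg, against 10.2%. These shares lie near those of all probes. DESeq2 called none of the 10 in these 3 comparisons. Of all probes it called 273 of 19296, 166 of 20188 and 302 of 19296 there, in the same order. With the shallow library of mouse 355 kept in the shared fit, the calls at 5 mg/kg were Plin2 and Mgll in each sex, and none of the 10 passed in males at 0.5 mg/kg. The share of all probes called in that fit is not given, so these losses are not set against all probes.

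**Figure D1:**
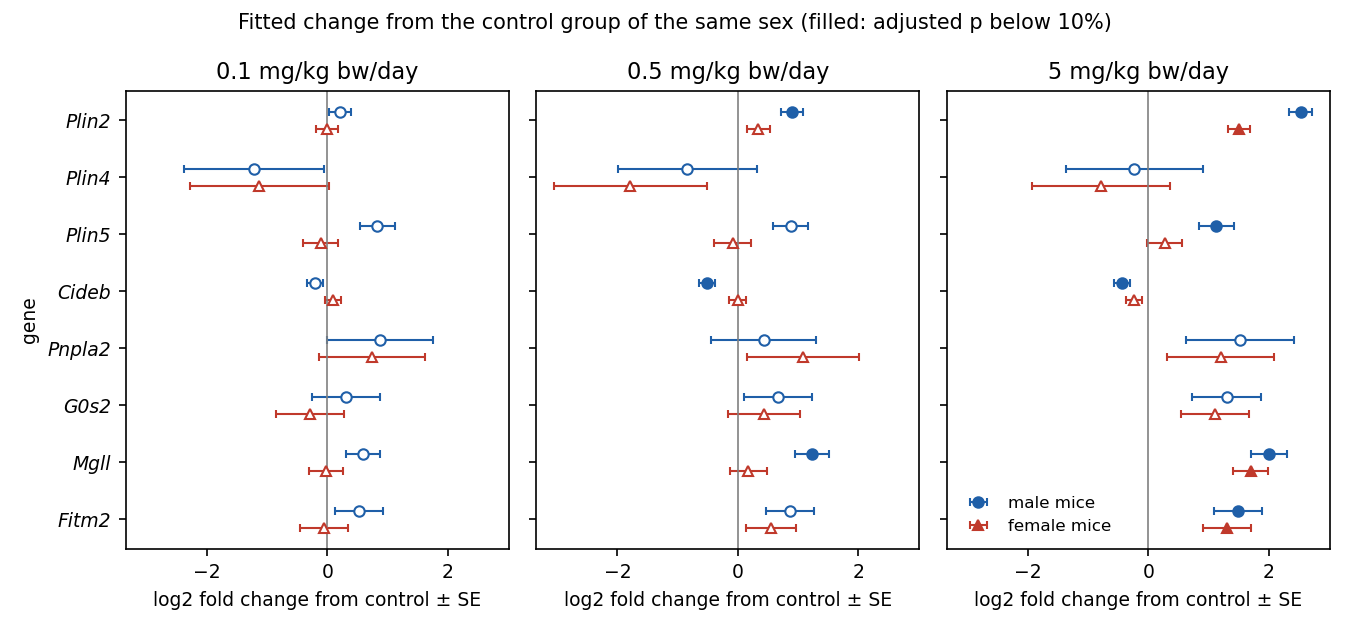
Fitted log2 fold change from the controls of the same sex for 8 of the 10 genes at each dose, with bars for the standard error; circles are males, triangles are females, and filled symbols have an adjusted p below 10%. Cidea and Cidec are not drawn, because the control males had no reads. At 5 mg/kg Plin2, Mgll and Fitm2 are filled in both sexes, and Plin5 and Cideb in males.

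Plin2 encodes perilipin 2, the most widespread perilipin of the hepatocyte droplet, on chromosome 4 (86626910 to 86670217, GRCm38.p6). The 5 control males had 379, 468, 541, 553 and 697 CPM, the reads of a probe scaled to a common library size by the trimmed mean of M values (TMM). Males at 0.5 mg/kg had 867, 942, 1022, 1047 and 1055, and males at 5 mg/kg had 1997, 2758, 3080.3, 3345 and 4107. Every male at 0.5 mg/kg lay above every control male, and every male at 5 mg/kg lay above every male at 0.5 mg/kg. Plin2 rose in males by a log2 fold change of 0.90 ± 0.18 (SE, adjusted p = 0.0021) at 0.5 mg/kg and of 2.54 ± 0.19 (adjusted p = 1.4e-14) at 5 mg/kg, a 5.80-fold difference. At 0.1 mg/kg the males, from 426 to 863, overlapped the controls and the difference was 0.22 ± 0.18 (adjusted p = 0.99).

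In females, the 5 controls had 546, 590.3, 663, 683 and 839 CPM of Plin2. The females at 5 mg/kg had 1234, 1763, 1901, 2241 and 2279. These groups did not overlap, and Plin2 rose by 1.50 ± 0.19 (adjusted p = 5.3e-08), a 2.84-fold difference. The 4 females at 0.5 mg/kg, with 613, 864, 878 and 1008, overlapped the controls, with a difference of 0.34 ± 0.19 (adjusted p = 0.54), and the females at 0.1 mg/kg ranged from 522 to 907 with a difference of 0.00 ± 0.18 (adjusted p = 1.0). The step from 0.5 to 5 mg/kg was 1.63 ± 0.19 (adjusted p = 1.9e-08) in males and 1.16 ± 0.20 (adjusted p = 0.00018) in females. Plin2 was the 1 gene of the 10 that passed in the male step, against 2.64% of all probes.

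The change of Plin2 at 5 mg/kg was larger in males than in females. The difference between the 2 log2 fold changes was 1.03 ± 0.26 (adjusted p = 0.041), and Plin2 was the 1 gene of the 10 for which this interaction passed, against 1.04% of all probes. That call was lost without control female 153, male 402 or female 453, each left out alone, where the difference was still between 0.89 and 1.15 over all leave-outs and the adjusted p reached 0.14, and with mouse 355 kept in the fit (adjusted p = 0.22). The second probe gave 1.46 ± 0.31 (adjusted p = 0.0086). It ran from 67.2 to 94.5 CPM in control males and from 356 to 783 in males at 5 mg/kg, and from 79.8 to 128 in control females and from 136 to 328 in females at 5 mg/kg. The third probe, with 2662 reads over the 39 libraries against 617779 for the first, passed in none of these comparisons.

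Plin5 encodes perilipin 5, which holds droplets against mitochondria in tissues that oxidise fat, on chromosome 17 (56111597 to 56117606). The control males had 24.3, 29, 29.8, 41.8 and 45.4 CPM, and the males at 5 mg/kg had 46.1, 67.6, 71.5, 85.8 and 103. The lowest treated male lay just above the highest control, and Plin5 rose by 1.13 ± 0.29 (adjusted p = 0.0085). The males at 0.5 mg/kg, from 48.8 to 79.2, also lay above all controls, with a difference of 0.88 ± 0.29 that did not pass (adjusted p = 0.14). At 0.1 mg/kg mice 201 and 205, with 95.4 and 93.4, stood apart from the 3 others, at 36.5 to 41.4, and the difference was 0.84 ± 0.29 (adjusted p = 0.35).

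Females showed a wide spread of Plin5 already in the controls, with 31.9, 32, 50.8, 89.3 and 93.4 CPM. At 5 mg/kg they had 34, 73.0, 74.8, 84.2 and 93.8, within nearly the same range. The difference of 0.28 ± 0.29 did not pass (adjusted p = 0.96) and its 95% interval ran from -0.29 to 0.84. The difference between the sexes in this change was 0.86 ± 0.41 (adjusted p = 0.39), so a larger change in males was not shown.

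Plin4, a perilipin of small nascent droplets on chromosome 17 (56100587 to 56109948), had few reads. It ranged from 4.61 to 15.2 CPM in control males and from 0 to 10.6 in males at 5 mg/kg, and from 4.69 to 27.6 in control females and from 0 to 18.9 in females at 5 mg/kg. The groups overlapped at every dose in both sexes, and no comparison passed. At 5 mg/kg the difference was -0.23 ± 1.14 (adjusted p = 1.0) in males and -0.78 ± 1.15 (adjusted p = 1.0) in females, with 95% intervals from -2.47 to 2.01 and from -3.03 to 1.47.

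**Figure D2:**
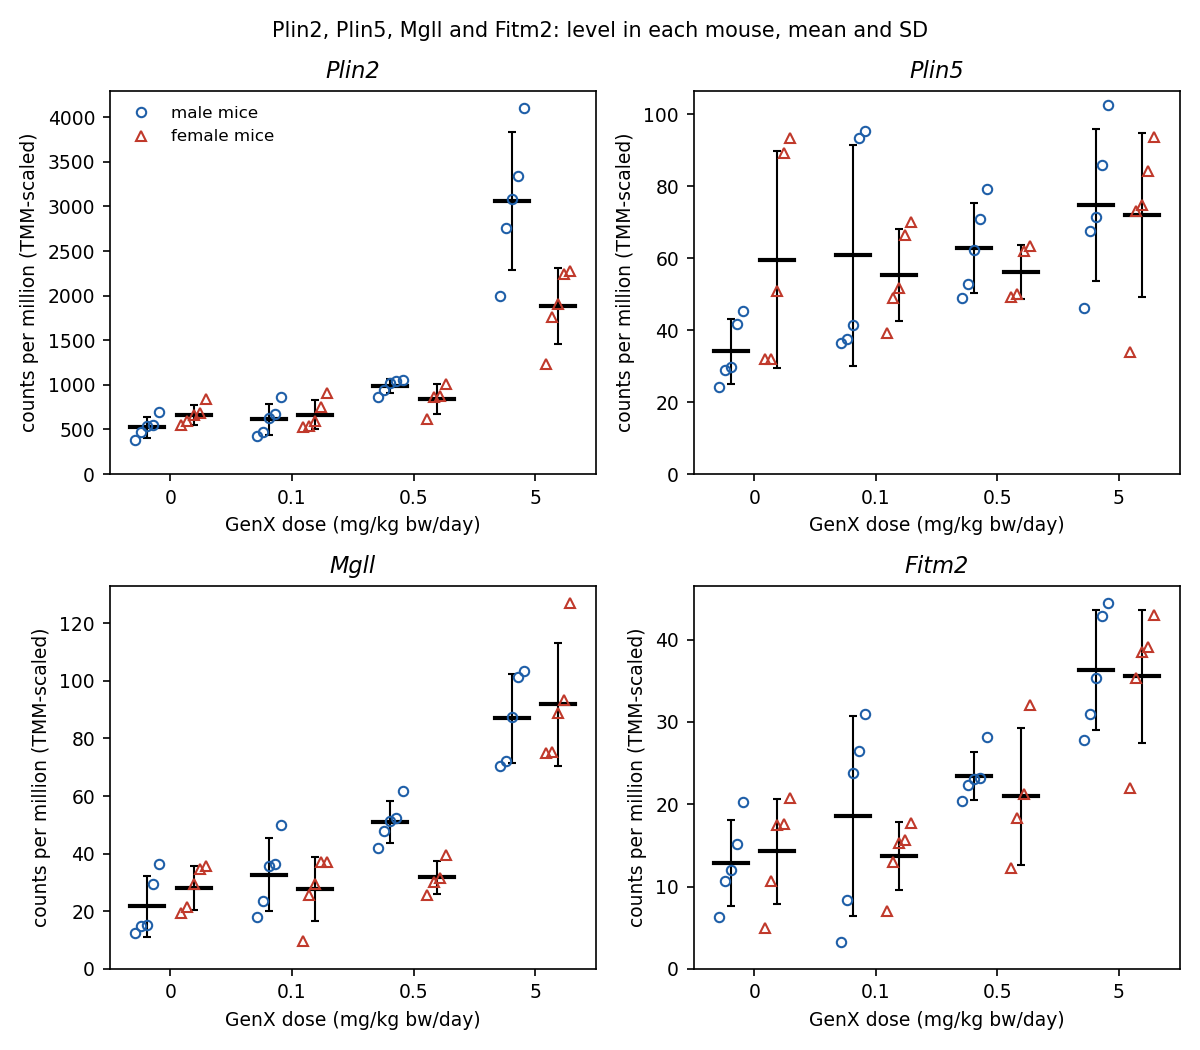
CPM (TMM-scaled, linear axes from 0) of Plin2, Plin5, Mgll and Fitm2 in each mouse by GenX dose; circles are males, triangles are females, and black bars give the mean and SD of each group (n = 5, with n = 4 females at 0.5 mg/kg). Plin2 at 5 mg/kg spans 1997 to 4107 in males and 1234 to 2279 in females, above all controls, and Plin5 separates from its controls in males but not in females.

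Of the CIDE proteins, which carry droplet fusion, Cideb is the member made by normal hepatocytes, where it also serves the lipidation of very low density lipoprotein, and lies on chromosome 14 (55754052 to 55758424). Control males had 192, 195, 239.9, 247 and 264 CPM, and males at 0.5 mg/kg had 152, 153, 154, 161 and 178, all below the controls. On the log2 scale Cideb fell by 0.51 ± 0.14 (adjusted p = 0.036). At 5 mg/kg the males had 143, 154, 159.5, 164 and 220.4, of which mouse 404, the highest, overlapped the controls, and Cideb fell by 0.44 ± 0.14 (adjusted p = 0.042). The fall at 0.5 mg/kg did not pass without control male 102 (adjusted p = 0.13), and that at 5 mg/kg did not pass without control 102, control 103, male 403 or male 405, with adjusted p up to 0.14. Neither fall passed without the filter on low counts. Over the alternatives the adjusted p reached 0.57 at 0.5 mg/kg and 0.64 at 5 mg/kg.

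Control females had 159, 161, 165, 194 and 197 CPM of Cideb, and females at 5 mg/kg had 132, 138, 154, 155 and 163. The groups overlapped and the difference was -0.24 ± 0.14 (adjusted p = 0.42). Control males stood 0.38 ± 0.14 above control females, which did not pass (adjusted p = 0.17), and the sex difference in the change was -0.51 ± 0.20 at 0.5 mg/kg (adjusted p = 0.27) and -0.20 ± 0.19 at 5 mg/kg (adjusted p = 0.92). Beside this, the summed hepatocyte markers of males at 0.5 mg/kg, from 10872 to 12809 CPM, also lay below those of all control males, as did those at 5 mg/kg in each sex below their controls. The markers in this sum did not move alike. In males at 5 mg/kg Alb (-0.07) and Ttr (-0.16, log2) did not pass, while Ahsg (-1.31), Serpina1a (-1.65), Cps1 (-1.18) and Ass1 (-1.29) were lower. The part of the hepatocyte markers in the fall of Cideb was not tested.

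Cidea is best known from brown adipocytes and from fatty liver, and lies on chromosome 18 (67343564 to 67367794). Its single probe had no reads in any of the 34 libraries outside the males at 5 mg/kg. In the 5 males at 5 mg/kg it had 3.48, 5.14, 6.01, 7.17 and 12.9 CPM, or 523 reads in all. These reads correspond to an estimated 21.2 molecules, from 2.17 to 8.70 per mouse. Males at 5 mg/kg held more molecules per library than control males. At the summed depth of the control males the same share would have given 12.4 molecules, where none was counted. Against a floor of 3 molecules over the 5 controls, the pooled level of Cidea at 5 mg/kg was 3.81-fold higher. Only the control side of this ratio is bounded, and counting error in the treated males could make it smaller. Cidea was called with a fitted adjusted p of 0.092 (edgeR). That call did not pass in any fit that left out 1 of the 10 mice (adjusted p up to 0.16). It also did not pass by DESeq2 or without the filter on low counts, and over the alternatives the adjusted p reached 0.57.

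Cidea is also an adipocyte transcript, so the adipocyte markers are given beside it. Ucp1 and Dio2 of the brown adipocyte list had no reads in any library. Elovl3, the remaining gene of that list, had reads in 38 libraries, at a mean of 1118 CPM in control males. In males at 5 mg/kg its mean was 112 CPM, and Elovl3 fell by 3.32 on the log2 scale (edgeR, adjusted p = 3.8e-05). Without reads of Ucp1 and Dio2, this fall is not taken as a fall of brown adipocytes. The white adipocyte list, Adipoq, Lep, Retn, Cfd, Plin1 and Lipe, summed to 0 to 1.37 CPM in males at 5 mg/kg and to 0 to 3.17 in control males. Of 6 stellate cell markers, Col1a1 (1.63, edgeR adjusted p = 0.055) and Col3a1 (2.45, adjusted p = 0.013) rose in males at 5 mg/kg. In this comparison 4.83% of all probes were higher. Lrat (1.65), Dcn (0.15), Reln (-0.70) and Des (-1.11) did not pass, and none of the 6 passed in females. The part of these markers in the droplet genes was not tested.

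Cidec, also called FSP27, drives the growth of large droplets in adipocytes and fatty hepatocytes, and lies on chromosome 6 (113424634 to 113435760). Its leading probe had no reads in the 5 control males and had 2.77, 5.49, 5.63, 9.80 and 11.7 CPM in the males at 5 mg/kg. This corresponds to 21.4 estimated molecules and to a pooled level 3.88-fold above the same floor, again with only the control side bounded. The fitted adjusted p was 0.077 (edgeR). Elsewhere the probe had reads in 4 of 34 libraries: control female 153 with 2.47, male 304 at 0.5 mg/kg with 2.00, and females 453 and 454 at 5 mg/kg with 3.51 and 6.95. The call in males did not pass in 9 of the 10 fits that left out 1 mouse (adjusted p up to 0.14) or by DESeq2.

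The gene has 3 further probes. Probes 2 and 3 had reads in all 5 males at 5 mg/kg and in no control male, with adjusted p of 0.15 and 0.11. Summed over the 4 probes, Cidec had 1056 reads in males at 5 mg/kg, with 4.78 to 17.6 estimated molecules per mouse, and 0 in control males and in either sex at 0.1 mg/kg. Reads appeared in 4 of 5 females at 5 mg/kg, with 377 in all, against 2 of 5 control females with 64. A change of Cidec in females at 5 mg/kg did not pass with the leading probe (adjusted p = 1.0) or the second. The third probe had reads in 3 females at 5 mg/kg and in no control female, and did not pass (edgeR, adjusted p = 0.26). The size of change that could be detected at this depth was not computed.

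**Figure D3:**
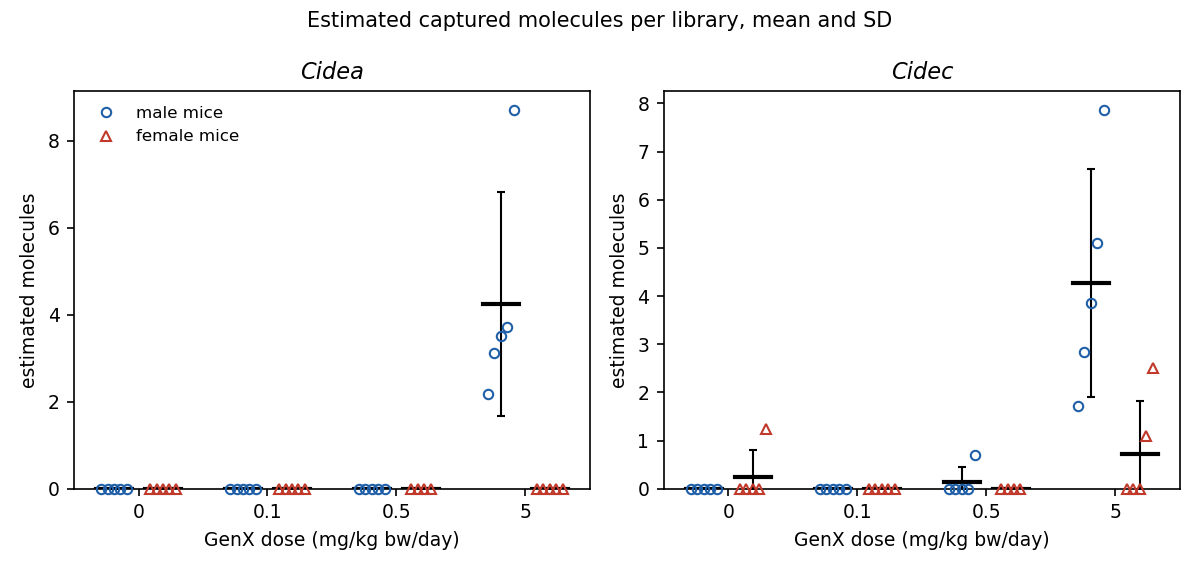
Estimated captured molecules of the Cidea probe and of the leading Cidec probe in each library by GenX dose (linear axes from 0); circles are males, triangles are females, and black bars give the mean and SD of each group. All 5 males at 5 mg/kg have reads of both, with 2.17 to 8.70 molecules of Cidea, and every other library is at 0 for Cidea.

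Monoacylglycerol lipase, encoded by Mgll on chromosome 6 (88724412 to 88828360), frees the last fatty acid from a glyceride and also degrades an endocannabinoid. Control males had 12.4, 15, 15.2, 29.3 and 36.4 CPM, males at 0.5 mg/kg had 42, 47.7, 51.4, 52.2 and 61.6, and males at 5 mg/kg had 70.5, 72.3, 87.4, 101 and 103. The 3 groups did not overlap. Mgll rose in males by 1.23 ± 0.29 at 0.5 mg/kg (adjusted p = 0.011) and by 2.00 ± 0.30 at 5 mg/kg (adjusted p = 1.6e-06), which is 4.01-fold. The step from 0.5 to 5 mg/kg, 0.77 ± 0.29, did not pass in males (adjusted p = 0.22).

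Control females had 19.3, 21.4, 29.3, 34.8 and 35.8 CPM of Mgll, and females at 5 mg/kg had 74.8, 75.2, 88.7, 93.2 and 127. Mgll rose in females by 1.71 ± 0.29 (adjusted p = 6.5e-05), which is 3.26-fold, with no overlap. The females at 0.5 mg/kg, at 25.8, 30.3, 31.5 and 39.6, overlapped the controls, above all of which lay mouse 354 alone, with a difference of 0.18 ± 0.30 (adjusted p = 1.0). Mgll and Plin2 were the 2 genes that passed in the female step from 0.5 to 5 mg/kg, where 1.23% of all probes did, and the step of Mgll was 1.53 ± 0.31 (adjusted p = 0.0028). The change at 5 mg/kg differed between the sexes by 0.30 ± 0.40 (adjusted p = 1.0), with a 95% interval from -0.49 to 1.09.

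The second Mgll probe gave the same calls at 5 mg/kg but placed the lower dose differently. Its difference at 5 mg/kg was 1.71 ± 0.28 (adjusted p = 1.6e-05) in males and 1.84 ± 0.28 (adjusted p = 9.3e-06) in females. At 0.5 mg/kg it gave 0.74 ± 0.28 (adjusted p = 0.22) in males and 1.01 ± 0.29 (adjusted p = 0.27) in females, so neither passed, and in the step from 0.5 to 5 mg/kg it passed in males (0.96 ± 0.28, adjusted p = 0.054) and not in females (0.83 ± 0.30, adjusted p = 0.27).

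Adipose triglyceride lipase, encoded by Pnpla2 on chromosome 7 (141455188 to 141460743), begins the breakdown of stored triglyceride. Control males had 0, 1.35, 1.87, 2.98 and 23.1 CPM, and males at 5 mg/kg had 6.41, 12.8, 17.4, 19.8 and 28.2. Control male 101 alone lay among the treated mice. The difference of 1.52 ± 0.90 did not pass (adjusted p = 0.35), and its 95% interval ran from -0.23 to 3.28. Females ranged from 2.72 to 9.35 in controls and from 5.92 to 23.3 at 5 mg/kg, with a difference of 1.21 ± 0.89 (adjusted p = 0.70). The second Pnpla2 probe, of similar depth, gave at 5 mg/kg -0.10 ± 1.02 (adjusted p = 1.0) in males and 1.06 ± 1.03 (adjusted p = 0.92) in females.

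G0s2, the protein that inhibits adipose triglyceride lipase, lies on chromosome 1 (193272160 to 193273188). Control males had 12.7, 14.5, 19.4, 20.7 and 51.8 CPM and males at 5 mg/kg had 17.3, 30.5, 39.9, 96.4 and 109.6. The treated males spread over a wide range and overlapped the controls, and the difference of 1.30 ± 0.57 did not pass (adjusted p = 0.19). Females at 5 mg/kg had 20, 27.1, 83.4, 91.1 and 103 against 14.3, 18.5, 34.6, 37.8 and 45.2 in controls. Of these, 3 treated females lay above all controls and 2 among them, and the difference of 1.11 ± 0.57 did not pass (adjusted p = 0.31). Its 95% interval ran from -0.01 to 2.23.

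**Figure D4:**
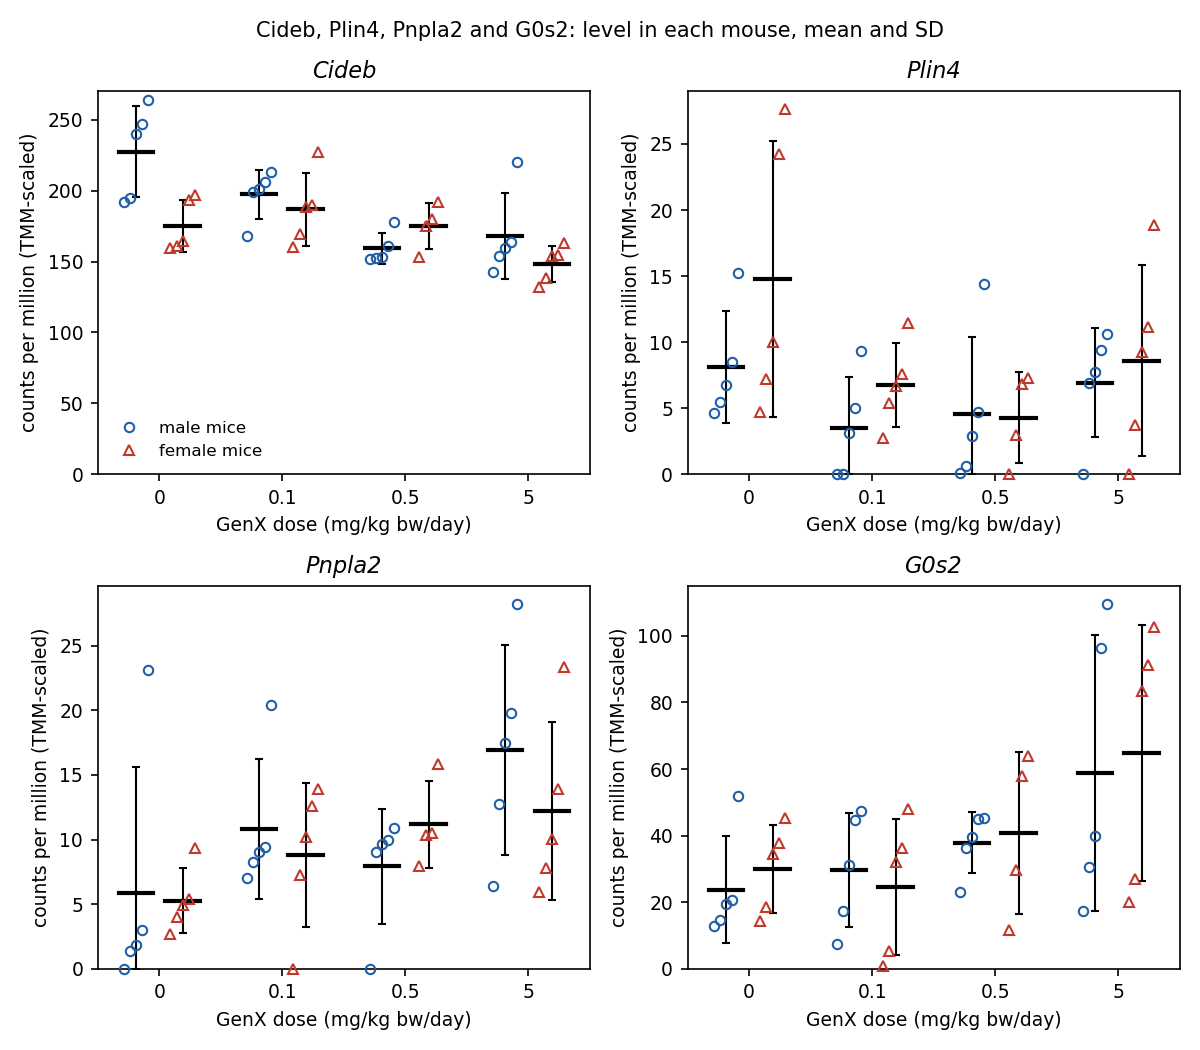
CPM (TMM-scaled, linear axes from 0) of Cideb, Plin4, Pnpla2 and G0s2 in each mouse by GenX dose; circles are males, triangles are females, and black bars give the mean and SD of each group (n = 5, with n = 4 females at 0.5 mg/kg). Cideb in males at 0.5 mg/kg, from 152 to 178, lies below all control males, and the treated groups of the other 3 genes overlap their controls at 5 mg/kg.

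Fitm2 encodes a protein of the endoplasmic reticulum needed for droplets to bud, on chromosome 2 (163468703 to 163472629). Control males had 6.31, 10.7, 12, 15.2 and 20.3 CPM and males at 5 mg/kg had 27.8, 30.9, 35.4, 42.9 and 44.5, above every control. Fitm2 rose in males by 1.49 ± 0.40 (adjusted p = 0.012). Males at 0.5 mg/kg, from 20.4 to 28.2, also lay above all controls, but the difference of 0.86 ± 0.40 did not pass (adjusted p = 0.26).

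Control females had 4.99, 10.6, 17.5, 17.6 and 20.7 CPM of Fitm2 and females at 5 mg/kg had 21.9, 35.3, 38.4, 39.1 and 43.0, again without overlap. Fitm2 rose in females by 1.32 ± 0.40 (adjusted p = 0.062). This call did not pass without control 153, control 155, female 451, female 452 or female 455, with adjusted p up to 0.22. The changes at 5 mg/kg differed between the sexes by 0.18 ± 0.56 (adjusted p = 1.0), with a 95% interval from -0.91 to 1.27.

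Control males and control females were compared to see whether levels differed between the sexes without GenX. None of the 10 genes passed, against 3.49% of all probes, with 3 at an unadjusted p below 0.05 (18.9% of all probes). DESeq2 called Cideb alone of the 10, and 1077 of 18099 probes. Plin5 was 0.80 ± 0.29 lower in control males (log2, adjusted p = 0.17) and passed without control female 154 or 155. The sex difference in the change passed for none of the 10 at 0.1 mg/kg, against 0% of all probes. At an unadjusted p below 0.05 it gave 1 of the 10, against 8.41% of all probes. DESeq2 called none of the 10 there, and 216 of 20188 probes. At 0.5 mg/kg the sex difference passed for none, against 0.274% of all probes. At an unadjusted p below 0.05 it gave 5, against 10.9% of all probes. DESeq2 called Cideb there, and 389 of 17832 probes. Among the 5 was Cidec. Its leading probe had 30 reads in control female 153, 27 in male 304 and none in the other mice of the groups compared.

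A further 22 genes of the droplet and of lipolysis were examined, of which 21 passed the filter on low counts. None passed at 0.1 mg/kg in either sex. In males 3 rose at 0.5 mg/kg, where 1.74% of all probes were higher, and 5 at 5 mg/kg, where 4.83% were. In females 1 rose at 0.5 mg/kg, where 0.185% of all probes were higher, and 3 at 5 mg/kg, where 1.83% were. None fell in these 4 comparisons. At 5 mg/kg their median log2 fold change was 0.87 for males and 0.26 for females. Hsd17b11, a short-chain dehydrogenase that is carried to droplets, passed in 4 of the 6 dose comparisons. It ranged from 122 to 239 CPM in control males, from 546 to 642 at 0.5 mg/kg and from 1086 to 1826 at 5 mg/kg, and in females from 144 to 269, from 262 to 413 and from 1095 to 1484. Hsd17b11 rose by 1.72 ± 0.17 and 2.97 ± 0.17 in males (adjusted p = 2.0e-10 and 2.4e-18) and by 0.90 ± 0.17 and 2.77 ± 0.17 in females (adjusted p = 0.0038 and 1.8e-17) at 0.5 and 5 mg/kg.

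Abhd6, a second monoacylglycerol lipase, rose at 5 mg/kg by 1.61 ± 0.24 (adjusted p = 1.9e-06) in males and by 2.13 ± 0.24 (adjusted p = 8.0e-09) in females, and by 0.87 ± 0.24 in males at 0.5 mg/kg (adjusted p = 0.042). Its level ran from 28.5 to 56.4 CPM in control males and from 90.0 to 149.6 at 5 mg/kg, and from 16.2 to 40.8 in control females and from 95.5 to 163 at 5 mg/kg. Hsd17b13, a droplet protein of hepatocytes, rose in males by 1.73 ± 0.32 at 0.5 mg/kg (adjusted p = 0.00072) and 2.45 ± 0.33 at 5 mg/kg (adjusted p = 2.4e-07). In females its difference at 5 mg/kg was 0.19 ± 0.31 (adjusted p = 1.0). The sex difference in the change of Hsd17b13 passed at 0.5 mg/kg (2.04 ± 0.47, adjusted p = 0.042) and at 5 mg/kg (2.26 ± 0.45, adjusted p = 0.0040). Control males, with 52.2 to 74.1 CPM, were lower than control females, with 70.9 to 224 (-1.15 ± 0.32, adjusted p = 0.036). Males at 5 mg/kg had 221 to 549 and females 96.2 to 251.

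The genes whose levels ran closest to the droplet genes were found by Pearson correlation of log2 CPM over the 39 libraries, which share their dose groups and depth. Of 12412 genes compared, Ehhadh (r = 0.927), Acot1 (0.926) and Aldh3a2 (0.919) were closest to Plin2. Hsd17b11 (0.851), Vwa8 (0.844) and Ehhadh (0.843) were closest to Mgll. The closest to Plin5, Snrnp25 (0.663), Mpp5 (0.646) and Atp10d (0.631), ran less near to it. Among the 10 genes themselves, Plin2 and Mgll had r = 0.790. Cidea and Cidec had r = 0.765, a value set largely by the males at 5 mg/kg against libraries without reads. Of the 34 libraries outside that group, all lacked reads of Cidea and 30 lacked reads of the leading Cidec probe.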

How the data were processed

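TempO-Seq libraries from liver sections of 5 mice in each of 8 groups were sequenced by the study on an Illumina instrument. The submitters' processing notes name bcl2fastq 2.17.1.14, Bowtie and build mm10. The deposited values are raw read counts per probe that the authors made by aligning reads to the probe sequences; they carry no molecular identifiers, so floors and molecule estimates cover counting error only. Column headers are animal numbers, matched to groups through the sample titles. Following the study, 1 library with a total more than 2 SD below the mean was left out.

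Counts of the other 39 were filtered (filterByExpr), scaled by TMM and fitted in 1 quasi-likelihood model with a coefficient per group in edgeR 4.0.16 under R 4.3.3, with Benjamini-Hochberg adjustment over 17877 probes. Calls were made at an adjusted p below 10%, the threshold of the study, and tests were two-sided. Each library is 1 animal. The fit was tested on simulated data, with changes placed only in probes with many reads. Recovery in probes with few reads, such as those of Cidea, Cidec, Plin4 and Pnpla2, was not tested. Levels compare within a probe only. Molecules were estimated as reads divided by the position of the first peak of the low counts. All 10 genes are named; of the 22 further genes those called in 2 or more dose comparisons are named, and for likeness of pattern the 3 closest genes of the 3 genes with the smallest p. The genes and lists were chosen with earlier results of these data known. Alternatives were DESeq2 1.42.0, its size factors in edgeR, no filter, all 40 libraries, the groups compared alone, probes summed by gene, molecules in place of reads, further probes and leaving out each mouse.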

Additional observations from a re-analysis of the deposited data

Results flagged for a closer look

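Of 69 groups of 4 or 5 libraries tested for a value far from the rest, 7 had one. Chance flags about 1 in 20 groups of normally spread values. That rate does not hold for counts near 0, such as those of Cidec and Pnpla2, so the 7 are not set against it. Cideb in male 404 at 5 mg/kg stood at 220.4 CPM, above the other 4 males at 143 to 164. Pnpla2 stood apart in 3 male groups. Control male 101 had 23.1 CPM against 0 to 2.98 in the other controls, male 205 at 0.1 mg/kg had 20.4 against 7.05 to 9.41, and male 304 at 0.5 mg/kg had 0 against 9.03 to 10.9. Control male 101 was also the highest for G0s2, with 51.8 CPM against 12.7 to 20.7. Cidec had reads of its leading probe in 1 library of 2 groups, control female 153 with 2.47 CPM and male 304 at 0.5 mg/kg with 2.00, and the others of these groups were at 0. A single library with reads among libraries without reads is always flagged by this rule.

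The response of Plin2 to 5 mg/kg differed between the sexes, with a male minus female log2 fold change of 1.03 (interaction term in edgeR, adjusted p = 0.041). The median of this difference over all probes was 0.16. That call of Plin2 was lost without mouse 153, 402 or 453, each left out alone, and with all 40 libraries.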

How the results depend on the processing

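No call of Plin2 or Mgll at 5 mg/kg was lost under any of the 7 alternatives or the 10 leave-outs in either sex. Keeping all 40 libraries had the widest effect: it left 0 of the 10 genes called in males at 0.5 mg/kg, 2 in males at 5 mg/kg (Plin2 and Mgll) and 0 for the sex difference at 5 mg/kg. In males between 0.5 and 5 mg/kg, 2 genes passed with probes summed by gene or with molecules, and 3 within the compared groups alone. Between control sexes 1 passed by DESeq2, which called 1077 of 18099 probes there, and 1 with molecules (Cideb both times). The sex difference at 0.5 mg/kg gave 1 by DESeq2 (Cideb), which called 389 of 17832 probes there, and 1 with summed probes (Cidec). That Cidec call rested on 67 reads in males at 0.5 mg/kg and 64 in control females. Control males and females at 0.5 mg/kg had no reads of it. Leaving out 1 mouse gave 2 to 3 genes in males at 0.5 mg/kg, 4 to 7 in males at 5 mg/kg, 2 to 3 in females at 5 mg/kg, 0 to 1 between control sexes and 0 to 1 for the sex difference at 5 mg/kg. The 4 genes called in males without mouse 102, 103, 403 or 405 were Plin2, Plin5, Mgll and Fitm2. For the alternatives other than DESeq2 and for the leave-outs, the share of all probes called is not given beside these counts. The third Plin2 probe, with few reads, gave -0.18 in males at 0.5 mg/kg (adjusted p = 1.0). Over all probes, DESeq2 size factors moved the share of calls that were higher from 73.2% to 62.7% in males at 0.5 mg/kg. The causes were not tested. In males at 5 mg/kg the estimated molecules summed over 5 libraries were 21.2 for Cidea, 21.4 for Cidec, 19.9 for Plin4 and 49.3 for Pnpla2, against 9227 for Plin2. No paired analysis was possible because the groups share no animal numbers.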

Other observations

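In the library left out, of mouse 355, Plin2 had 1776 reads, Pnpla2 211 and Cideb 75, and the leading probes of the other 7 genes had none. It held 92099 estimated molecules, below the 287244 of the shallowest library used.

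Fitm1, the relative of Fitm2, differed between control males and control females. It ranged from 3.32 to 13.8 CPM in control males and from 0 to 2.14 in control females (edgeR, adjusted p = 0.0059), and from 11.3 to 23.6 in females at 5 mg/kg, above all control females (adjusted p = 0.00092). In males its difference at 5 mg/kg did not pass (adjusted p = 0.37). Fitm1 passed in 1 dose comparison and was named after its values were seen.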
